A study of Mus musculus with 29 samples.

Results

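Gene expression of mouse hearts 3 weeks into a heart failure (HF) protocol was compared with that of control hearts, in 2 libraries of HF week 3 and 5 libraries of Control week 19, 7 of the 24 libraries used and of the 29 samples labelled in the series. The question was which genes differ while heart failure is still being induced. All samples were labelled C57BL6 (C57BL/6J in the methods) and whole ventricle from whole heart, and the methods name wild-type males that were 3 months old at the start and frozen apical tissue. For HF mice the drinking water held salt (1% NaCl) and L-NAME, an inhibitor of nitric oxide synthases, at 0.3 mg/ml, and the mice from week 1 received angiotensin II (Ang II) at 0.7 mg/kg/day from a subcutaneous pump, so that week 3 falls after 3 weeks of the water and 2 weeks of Ang II. The methods describe these agents for the HF mice. Control mice were taken 16 weeks later in the protocol than the HF week 3 mice, so age and treatment cannot be told apart in this comparison. HF week 5, at the end of the induction, has 3 libraries and is set beside week 3 at the end. The experiment was run in 4 cohorts, and which library came from which cohort is not given in the sources used here.

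Ang II acts on the AT1 receptor of cardiomyocytes, smooth muscle cells and fibroblasts, raises blood pressure and promotes hypertrophy and deposition of collagen. Loss of nitric oxide removes a signal that relaxes vessels through cyclic GMP. A loaded ventricle is known to secrete natriuretic peptides, to use fatty acids less, to reduce the proteins of calcium cycling and to build extracellular matrix from activated fibroblasts.

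A gene whose mean over the 24 libraries reached 0.5 FPKM, the filter on low values, was tested with limma on log2(FPKM + 0.5), where FPKM counts fragments relative to the length of a transcript and the size of the library, and it was called when its Benjamini-Hochberg adjusted p was under 0.05 and both HF week 3 libraries lay on one side of all 5 controls. Differences are given as HF week 3 minus control on that log2 scale, which understates the change of genes with low values, and with the standard error (SE). By these rules 2393 of 12759 genes (18.8%) were called higher and 2727 (21.4%) lower, 40.1% in all, against a median difference of -0.05 over all genes tested. Without regard to any p, both HF week 3 libraries lay above all controls for 2733 genes (21.4%) and below all of them for 3050 genes (23.9%). Counts of called genes in any group below are to be read against these shares. An exact permutation test of 2 libraries against 5 cannot give a two-sided p under 0.0952, so single genes rest on the spread that limma shares across genes and groups. The HF week 3 libraries varied more than that shared spread, with limma weights of 0.0929 each against 0.353 to 3.09 for the controls. With equal weights the p-values can therefore be too small for HF week 3.

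The HF week 3 libraries stood apart from the controls and from each other. Library 1 had 12816 genes above 0 against 18091 in library 2 and 17026 to 17140 in the controls, and 1192 of the genes tested were listed at 0 in it, against 45 in library 2. Across genes, library 1 correlated with the controls at r of 0.815 to 0.832 and library 2 at 0.891 to 0.923, whereas the controls correlated with each other at 0.972 to 0.991. The 10 highest genes made up 19.8% of all FPKM in library 1, 37.5% in library 2 and 14.6% to 15.6% in the controls. When limma weighted the libraries by their spread, which gives both libraries of a group of 2 one weight, 218 genes (1.71%) were called higher and 489 (3.83%) lower, all of them among the genes called with equal weights. Control library 5 stood apart from the other 4 controls in 20 of the 129 genes described. With library 2 alone 1845 genes (14.5%) were called higher and 1985 (15.6%) lower, and with library 1 alone 3465 (27.3%) and 4526 (35.6%). Calls made with both and again with each library alone numbered 1143 higher and 1447 lower. In the comparison with the controls, where weighting ended the call of a gene given with its values below, the weighted adjusted p stands beside it. Among the genes named below as higher or lower without their values, calls lost with library 2 alone were those of Agt, Atp6ap2, Bmpr2, Cyba, Cyr61, Ddah2, Ece2, Kcnj2, Kdr, Laptm5, Loxl3, Ltbp1, Ltbp4, Mmp15, Ncf1, Pde1c, Sox10, Thbs2 and Txnrd2. Those lost with library 1 alone were Anpep, Arntl, Ece1, Il6st, Kcnj12, Nr2f2, Tgfb1 and Tgfbr2, and Cx3cr1 was under the filter with either library left out.

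**Figure D1:**
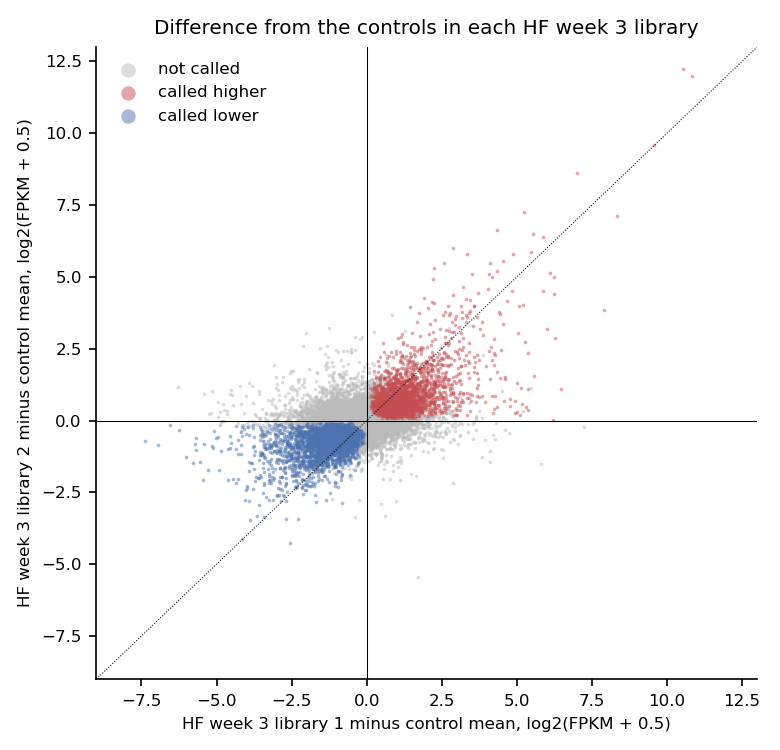
Each point is 1 of the genes tested, with its log2(FPKM + 0.5) in HF week 3 library 1 (horizontal) and library 2 (vertical) minus the control mean, red for genes called higher and blue for genes called lower, genes at 0 in a whole group left out and the dotted line marking equal differences. Called genes lie in 2 opposite corners because a call requires both libraries on one side of the controls, and grey points spread further along the axis of library 1.

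Several genes that ventricular muscle is known to express were listed at 0 in a whole group. Myh6, the alpha myosin heavy chain of the adult ventricle, was at 37546 and 301793 FPKM in the HF week 3 libraries and listed at 0 in all 5 controls. Myl2, the ventricular regulatory light chain, was at 10122 and 18753 FPKM, cardiac actin Actc1 at 2072 and 3320 FPKM and myoglobin Mb at 10333 and 15648 FPKM, and each was listed at 0 in every control. Nppa, the atrial natriuretic peptide gene, was listed at 0 in both HF week 3 libraries and at 202, 345, 249.6, 269 and 81.1 FPKM in control libraries 1 to 5. In HF week 5 Myh6, Cytb and mt-Nd4 were at 0 in all 3 libraries and Nppa was at 42004, 2100 and 2214 FPKM. An exact 0 in this table may be a failed estimate, so it is not read as absence of the transcript. The other 6 of 9 defining genes of ventricular muscle were present in all 7 libraries, each with a difference below 0 (median -0.63), and 3 were called lower, 1 of them under weighting. Troponin I Tnni3, which was not called, was at 9757 and 8070 FPKM against 9519 to 13385 FPKM in the controls. No fold change is given for a gene at 0 in a whole group, and such genes are left out of the counts below. They made up 17 of the calls of higher genes and 11 of the lower ones. Of the 2727 genes called lower, 383 were listed at 0 in HF week 3 library 1. Without genes at 0 in any of the 7 libraries, lower calls went from 9 to 6 for cardiac transcription factors and from 11 to 9 for ion channels. They went from 9 to 7 for clock genes, from 7 to 5 for adrenergic genes and from 1 to 0 for macrophage and for neural genes.

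Markers of tissue next to the ventricular wall were far higher in both HF week 3 libraries. Of the 6 atrial genes listed 5 passed the filter on low values and were called higher, 1 of them also under weighting, and the list summed to 7990 and 14252 FPKM against 45.0 to 54.6 FPKM in the controls. Myl7, the atrial regulatory light chain, was at 1805 and 5773 FPKM in HF week 3 libraries 1 and 2 and 0.943, 0.166, 0.647, 1.12 and 0.924 FPKM in control libraries 1 to 5, a difference of 11.39 (SE 1.62, adjusted p 1.94e-05, weighted adjusted p 0.0563). Myl4, the atrial essential light chain, was at 4094 and 4206 FPKM in HF week 3 libraries 1 and 2 and 4.65, 4.04, 4.43, 5.23 and 6.63 FPKM in control libraries 1 to 5. Sln, sarcolipin, an inhibitor of the calcium pump found in mouse atria, was at 1838 and 4070 FPKM against 0 to 0.988 FPKM in the controls (weighted adjusted p 0.0873), and Dkk3, a secreted protein of the Dickkopf family, at 28.2 and 53.8 FPKM against 0.363 to 0.750 FPKM in the controls (weighted adjusted p 0.0809). The HF week 3 values of these genes shared no range with the controls, while Bmp10, another atrial gene, was listed at 0 in both HF week 3 libraries.

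Genes of the mesothelium that covers the heart numbered 7, of which 6 passed the filter and 4 were called higher, all 4 also under weighting, with sums of 73.7 and 239 FPKM against 2.58 to 3.92 FPKM. Msln, mesothelin, was at 23.0 and 96.7 FPKM in HF week 3 libraries 1 and 2 and 0.0598, 0.0621, 0.122, 0.105 and 0.328 FPKM in control libraries 1 to 5. Keratin Krt19 stood at 25.4 and 49.1 FPKM against 0 to 0.142 FPKM in the controls and uroplakin Upk3b at 10.9 and 55.6 FPKM against 0 to 0.160 FPKM in the controls, both highest in library 2. Wt1 and Tbx18, transcription factors of the epicardium, were not called. The 8 adipocyte genes summed to 293 and 143 FPKM against 32.9 to 40.5 FPKM, and 5 were judged, of which 4 were called higher and 0 under weighting, with the adipokine Adipoq at 6.09 and 5.76 FPKM against 0 to 0.0960 FPKM in the controls (weighted adjusted p 0.345) and adipsin Cfd at 202 and 87.0 FPKM against 0.0792 to 0.167 FPKM in the controls (weighted adjusted p 0.139), while Lep was at 0 and 0.0128 FPKM and Cidea was not called. Of 9 skeletal muscle genes, summing to 96.8 and 26.5 FPKM against 4.85 to 7.32 FPKM, 4 passed the filter and 3 were called higher, 1 of them under weighting, troponin Tnni2 at 83.3 and 10.3 FPKM against 2.82 to 4.16 FPKM in the controls (weighted adjusted p 0.0687) among them, whereas the adult skeletal myosin Myh4 was listed at 0 in both libraries. Of 9 erythroid genes 3 passed the filter, and by limma 0 were called (0 at an unadjusted p under 0.05), with sums of 2475 and 6871 against 2708 to 7298 FPKM, and of 7 neural genes 5 passed it and 0 were called higher and 1 lower, Sox10, a call lost under weighting and with library 2 alone. A gene can pass the filter through the group where it is high, so these counts describe the genes that passed and are no test of the lists. The part that neighbouring tissue in the samples has in the results below was not tested. In bulk tissue, fewer cells of a type and less RNA per cell cannot be told apart.

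**Figure D2:**
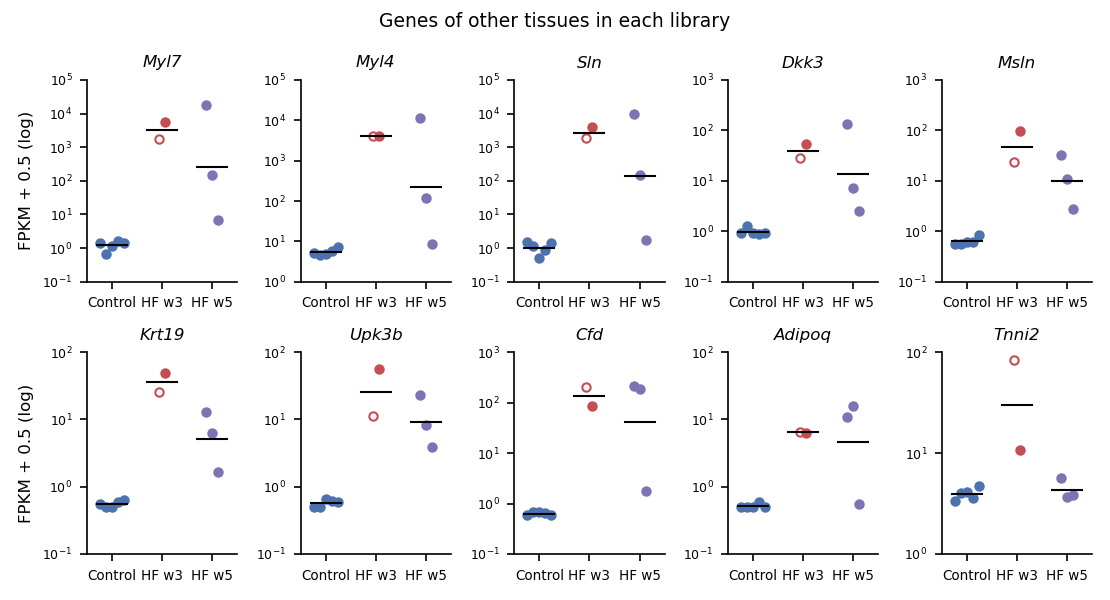
FPKM + 0.5 on log axes of genes of atrium, mesothelium, fat and skeletal muscle, 1 point per library for Control week 19, HF week 3 (library 1 open) and HF week 5, with a bar at the mean of the log values. Both HF week 3 points lie above every control in all panels, with Myl7 at 1805 and 5773 FPKM.

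Of 12 genes of the stretch, natriuretic and fetal list 11 were judged, Nppa being at 0 in both HF week 3 libraries as given above. Of the 11, 6 were called higher and 0 lower, 3 had a difference below 0, the median difference was 1.3, and under weighting 1 was called. Nppb, which encodes B-type natriuretic peptide, was at 1487 and 1331 FPKM in HF week 3 libraries 1 and 2 and 232, 358, 271, 338 and 619 FPKM in control libraries 1 to 5. Both HF week 3 values were more than the highest control, and the difference was 2.04 (SE 0.48, adjusted p 0.00168, weighted adjusted p 0.242). Acta1, the skeletal actin that fetal and overloaded hearts express, was at 922 and 2218 FPKM in HF week 3 libraries 1 and 2 and 227, 436, 153, 237 and 129 FPKM in control libraries 1 to 5 and rose by 2.73 (SE 0.49, adjusted p 1.74e-04, weighted adjusted p 0.259). Ankrd1, a stress-responsive protein that binds titin, was at 911 and 889 FPKM in HF week 3 libraries 1 and 2 and 273, 388, 292, 383 and 322 FPKM in control libraries 1 to 5, with the HF week 3 libraries close to each other and above every control (difference 1.45, adjusted p 4.33e-04, weighted adjusted p 0.398). Rcan1, an inhibitor and target of calcineurin, was at 117 and 74.7 FPKM in HF week 3 libraries 1 and 2 and 29.1, 27.2, 34.4, 37.4 and 29.0 FPKM in control libraries 1 to 5, and its call held under weighting (1.57, SE 0.17, adjusted p 1.30e-06). Myh7, the beta myosin heavy chain, was at 111 and 45.9 FPKM in HF week 3 libraries 1 and 2 and 21.1, 27.1, 43.4, 48.1 and 16.3 FPKM in control libraries 1 to 5. Library 2 lay within the range of the controls and the gene was not called (adjusted p 0.0702).

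Of 16 genes of the renin-angiotensin system 12 passed the filter, and 4 were called higher and 1 lower, against 5 and 5 with library 1 alone and 0 and 1 under weighting. The one that fell was Agtr1a, the receptor on which the infused peptide acts, at 0.865 and 2.56 FPKM in HF week 3 libraries 1 and 2 and 14, 13.8, 14.4, 11.1 and 9.55 FPKM in control libraries 1 to 5. No HF week 3 value came near a control, and the fall of 2.66 on the log2 scale (SE 0.26, adjusted p 4.19e-07) held under weighting. Ace, the enzyme that makes Ang II, was at 54.3 and 48.2 FPKM in HF week 3 libraries 1 and 2 and 24.1, 25, 20.2, 21.2 and 21.2 FPKM in control libraries 1 to 5, a rise of 1.18 (SE 0.16, adjusted p 1.24e-05, weighted adjusted p 0.147). The other higher genes were Agt, the precursor of the peptide, Anpep, an aminopeptidase, and Atp6ap2, the prorenin receptor.

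Of 25 genes of nitric oxide and cyclic GMP signalling 19 passed the filter, and 6 were called higher and 2 lower, against 10 and 6 with library 1 alone and 2 and 0 under weighting. Npr3, the receptor that clears natriuretic peptides, was at 13.9 and 15.9 FPKM in HF week 3 libraries 1 and 2 and 1.16, 1.74, 1.13, 1.43 and 0.755 FPKM in control libraries 1 to 5, and its rise of 3.17 (SE 0.44, adjusted p 1.54e-05) was the largest of the list and held under weighting. Pde9a, a phosphodiesterase of cyclic GMP, was at 3.5 and 5.22 FPKM against 0.917 to 1.77 FPKM in the controls (difference 1.38, SE 0.28, adjusted p 4.83e-04, weighted adjusted p 0.214). Nos3, the endothelial synthase that L-NAME inhibits, was at 25.2 and 18.6 FPKM in HF week 3 libraries 1 and 2 and 14, 15.1, 14.7, 16.3 and 10.1 FPKM in control libraries 1 to 5 (weighted adjusted p 0.568). Both HF week 3 values were above the highest control by a small margin, and the call (difference 0.63, adjusted p 0.0377) was lost with library 2 alone and under weighting. Npr1, the receptor of atrial and B-type natriuretic peptides, Gucy1b3, a subunit of soluble guanylyl cyclase, and Ddah2, which breaks down a natural inhibitor of the synthases, were also higher. Gucy1a3, the other cyclase subunit, was at 2.64 and 6.75 FPKM against 1.79 to 2.67 FPKM in the controls and overlapped with them. Pde3a and Pde1c, phosphodiesterases, were lower.

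Of 20 adrenergic genes 4 were called higher and 7 lower, against 18.8% and 21.4% over all genes, and under weighting 1 and 2 were called. Arrb1, a beta-arrestin that turns receptors off, was at 16.8 and 9.21 FPKM in HF week 3 libraries 1 and 2 and 2.70, 2.98, 2.73, 3.15 and 3.27 FPKM in control libraries 1 to 5 and rose by 1.91 (SE 0.21, adjusted p 1.48e-06). Prkaca, the catalytic subunit of protein kinase A, was at 18.3 and 48.5 FPKM in HF week 3 libraries 1 and 2 and 133, 124, 135, 125 and 81.8 FPKM in control libraries 1 to 5 and fell by 1.96 (SE 0.26, adjusted p 8.53e-06), both calls holding under weighting. All 3 of the alpha-1 adrenoceptor genes were among the lower ones, Adra1a at 0 and 0.284 FPKM against 1.43 to 2.76 FPKM in the controls (weighted adjusted p 0.0668), and the beta-adrenoceptor Adrb1 was not called. Of 6 endothelin genes, Ece1 and Ece2, enzymes that cut endothelin from its precursor, were higher and Ednra, the endothelin A receptor, was lower at 1.04 and 5.12 FPKM against 5.89 to 9.04 FPKM in the controls (weighted adjusted p 0.191). The call of Ednra was lost with library 2 alone and that of Ece1 with library 1 alone, which gave 1 higher and 4 lower of the 6, and under weighting 0 were called.

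**Figure D3:**
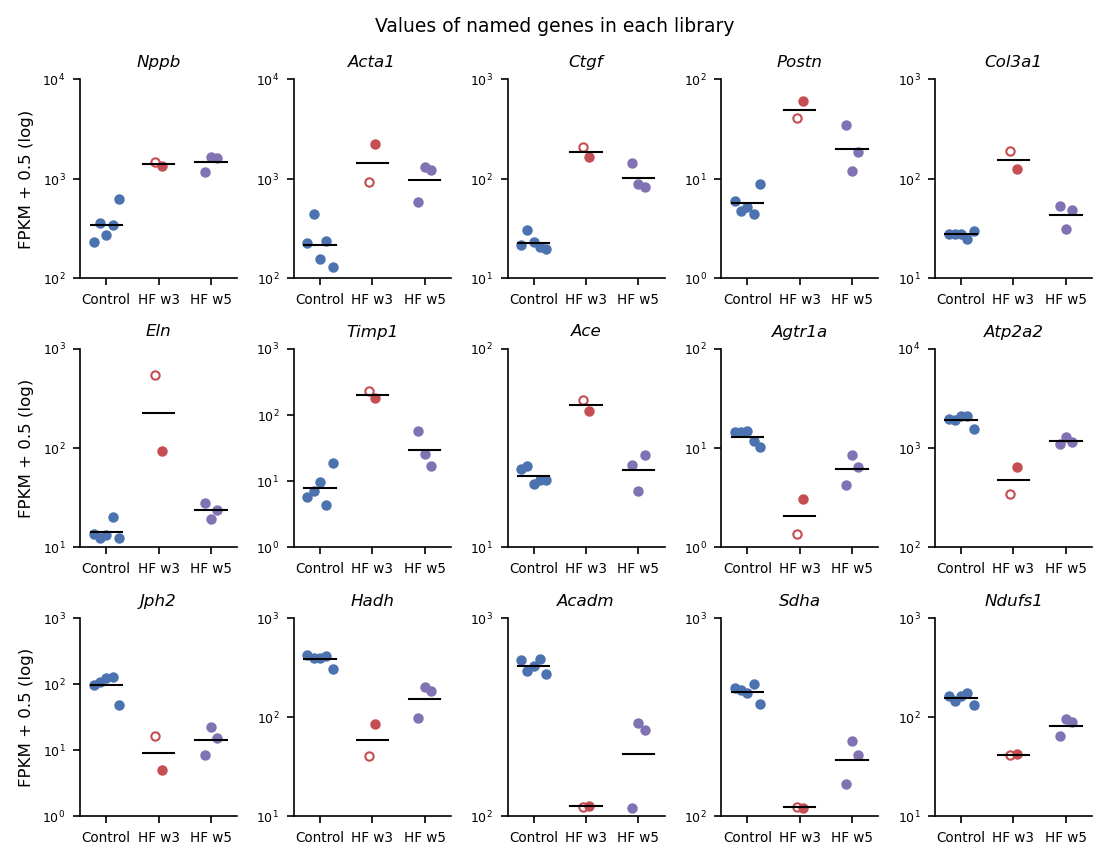
FPKM + 0.5 on log axes of single genes, 1 point per library for Control week 19, HF week 3 (library 1 open) and HF week 5, with a bar at the mean of the log values. Nppb at 1487 and 1331 FPKM and the matrix genes lie above every control, and Agtr1a and the genes of calcium cycling and metabolism lie below every control.

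Fibrillar and basement membrane collagens were higher almost throughout. Of 19 collagen genes 16 passed the filter, and 14 were called higher and 0 lower, against a share of 18.8% over all genes, with a median difference of 1.79, and 10 of the 14 held under weighting. Col3a1, the fibrillar collagen of elastic scar, was at 191 and 124 FPKM in HF week 3 libraries 1 and 2 and 27.4, 27.1, 27.4, 24.5 and 29.4 FPKM in control libraries 1 to 5. Its lowest HF week 3 value was several times the highest control, and the rise was 2.48 (SE 0.21, adjusted p 6.72e-08). Col1a1, the main collagen of stiff scar, was at 100.4 and 56.1 FPKM in HF week 3 libraries 1 and 2 and 20.4, 22.7, 21.8, 18.9 and 12.7 FPKM in control libraries 1 to 5 and rose by 1.96 (SE 0.22, adjusted p 1.72e-06). Col5a2, which nucleates fibrils, was at 30.4 and 13.8 FPKM against 2.70 to 2.92 FPKM in the controls, and Col16a1, a collagen associated with fibrils, at 30.4 and 31.9 FPKM against 3.60 to 5.54 FPKM in the controls. The basement membrane chains Col4a1, Col4a2, Col15a1 and Col18a1 were called too, and the exceptions were Col6a2 and Col6a3.

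Of 22 other structural matrix proteins 14 were called higher and 0 lower (median 0.96), 4 of them under weighting. Eln, elastin, the rubber-like protein of large vessels, was at 542 and 92.4 FPKM in HF week 3 libraries 1 and 2 and 13.2, 11.9, 12.6, 19.3 and 11.8 FPKM in control libraries 1 to 5. The HF week 3 libraries differed from each other by more than the whole range of the controls and both lay above it, a rise of 4.00 (SE 0.38, adjusted p 2.38e-07). Fmod, fibromodulin, a small proteoglycan that binds collagen, was at 10.3 and 27.7 FPKM in HF week 3 libraries 1 and 2 and 0.185, 0.107, 0.0876, 0.0901 and 0.185 FPKM in control libraries 1 to 5 and rose by 4.79 (SE 0.65, adjusted p 1.26e-05, weighted adjusted p 0.142). Fibronectin Fn1, versican Vcan, biglycan Bgn, fibrillin Fbn1 and lumican Lum were among the other 12, and decorin Dcn was not called.

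Matricellular proteins, secreted into the matrix to signal rather than to bear load, had 9 of 14 genes called higher and 2 lower, with a median of 2.09, and 3 and 0 under weighting. Ctgf, connective tissue growth factor, a target of TGF-beta and of stretch, was at 209.9 and 165 FPKM in HF week 3 libraries 1 and 2 and 20.8, 29.8, 22.6, 20.1 and 19.2 FPKM in control libraries 1 to 5. The values of the 2 groups were far apart and the rise of 3.04 (SE 0.24, adjusted p 3.50e-08) held under weighting. Postn, periostin, made by activated cardiac fibroblasts, was at 40.1 and 60.6 FPKM in HF week 3 libraries 1 and 2 and 5.51, 4.19, 4.69, 3.92 and 8.41 FPKM in control libraries 1 to 5 and rose by 3.14 (SE 0.38, adjusted p 2.89e-06). Cilp, which binds TGF-beta1, was at 15.7 and 20.3 FPKM against 1.01 to 1.25 FPKM in the controls (weighted adjusted p 0.257) and Comp, a thrombospondin that links collagen fibrils, at 17.1 and 28.7 FPKM against 0.295 to 1.49 FPKM in the controls (weighted adjusted p 0.155). Spp1, osteopontin, was at 10.1 and 1.31 FPKM in HF week 3 libraries 1 and 2 and 0.0458, 0.573, 0.291, 0.242 and 0.638 FPKM in control libraries 1 to 5 (weighted adjusted p 0.135), with library 2 closer to the controls than to library 1. The lower genes were Cyr61, a relative of Ctgf, and Thbs2, both calls lost with library 2 alone and with only both groups in the fit, and Thbs1 was not called at 20.9 and 6.69 FPKM against 1.77 to 10.9 FPKM in the controls.

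Enzymes and inhibitors that shape the matrix numbered 14 higher and 1 lower of 24, none of which held under weighting. Timp1, an inhibitor of matrix metalloproteinases, was at 225 and 176 FPKM in HF week 3 libraries 1 and 2 and 5.12, 6.41, 8.98, 3.85 and 18.3 FPKM in control libraries 1 to 5, a rise of 4.67 (SE 0.62, adjusted p 8.96e-06, weighted adjusted p 0.0687). Lox, which cross-links collagen and elastin, was at 3.38 and 2.46 FPKM in HF week 3 libraries 1 and 2 and 0.336, 0.183, 0.494, 0.555 and 0.474 FPKM in control libraries 1 to 5 (weighted adjusted p 0.0604), and Mmp3, stromelysin, at 33.1 and 13.2 FPKM against 2.02 to 5.34 FPKM in the controls (weighted adjusted p 0.0738). Loxl1, Loxl2 and Loxl3, relatives of Lox, and Mmp2 and Mmp14, which cleave collagen, were higher as well, and Mmp15, a membrane metalloproteinase, was the lower one. Of 29 genes of TGF-beta signalling 15 were called higher and 2 lower (median 0.62), and under weighting 1 and 0. Ltbp2, a relative of the proteins that hold latent TGF-beta in the matrix, rose most, at 9.84 and 10.9 FPKM in HF week 3 libraries 1 and 2 and 0.540, 0.659, 0.678, 0.420 and 0.491 FPKM in control libraries 1 to 5 (3.37, SE 0.55, adjusted p 7.70e-05, weighted adjusted p 0.254). The ligands Tgfb1 and Tgfb3, the receptors Tgfbr1 and Tgfbr2, the co-receptor endoglin Eng and the carriers Ltbp1, Ltbp3 and Ltbp4 were also higher, while the BMP receptor Bmpr2 was lower.

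Fibroblast markers other than matrix genes had 6 of 12 higher and 0 lower, 2 of them under weighting, with sums of 2038 and 1819 FPKM against 823 to 1090 FPKM in the controls. Vim, vimentin, the intermediate filament of mesenchymal cells, was at 458 and 459.7 FPKM in HF week 3 libraries 1 and 2 and 147, 149, 129, 154 and 218 FPKM in control libraries 1 to 5 and rose by 1.54 (SE 0.24, adjusted p 5.33e-05). S100a4, also called fibroblast-specific protein, was at 149 and 96.8 FPKM in HF week 3 libraries 1 and 2 and 29.1, 25, 19.4, 20.2 and 50.4 FPKM in control libraries 1 to 5 (2.13, adjusted p 1.26e-04, weighted adjusted p 0.133), and Meox1, a homeobox factor of activated fibroblasts, at 56.4 and 20.5 FPKM against 7.28 to 11.4 FPKM in the controls (weighted adjusted p 0.0825). Tcf21, Ddr2, Thy1 and Dpt were not called. Of 12 genes that the study names for the transition of endothelial to mesenchymal cells, 5 were higher and 1 lower, and 2 and 0 under weighting. Of the 12, 8 had a difference above 0 and 4 below. The study took some of them from a literature search and shows those for control, week 5 and week 19 hearts, so the list is not independent evidence.

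Among the transcription factors of that list, Twist1 was at 7.04 and 4.92 FPKM in HF week 3 libraries 1 and 2 and 2.60, 2.06, 1.56, 2.59 and 2.13 FPKM in control libraries 1 to 5 and rose by 1.26 (SE 0.22, adjusted p 1.22e-04, weighted adjusted p 0.322), and Twist2 was at 5.41 and 3.10 FPKM against 1.02 to 1.92 FPKM in the controls (difference 1.21, SE 0.22, adjusted p 1.82e-04, weighted adjusted p 0.314). Both factors drive mesenchymal programmes. Snai1 at 0 and 3.88 FPKM against 1.96 to 4.72 FPKM in the controls and Snai2 at 1.64 and 1.70 FPKM against 1.16 to 3.13 FPKM in the controls were not called, and the sign of each difference depended on the libraries or scaling used. Actn1, alpha-actinin of non-muscle cells, was at 20.4 and 32.3 FPKM in HF week 3 libraries 1 and 2 and 7.76, 6.70, 6.46, 7.32 and 8.06 FPKM in control libraries 1 to 5 (difference 1.76, SE 0.23, adjusted p 6.97e-06). Klf4, a factor of quiescent endothelium, was lower at 5.08 and 11.7 FPKM against 15.2 to 31.5 FPKM in the controls (weighted adjusted p 0.329), a call lost with library 2 alone, Smurf2, a ubiquitin ligase of the TGF-beta pathway, stood at 2.86 and 4.58 FPKM against 4.36 to 6.29 FPKM in the controls and Bmp4 at 4.33 and 9.21 FPKM against 3.10 to 4.69 FPKM in the controls. The junction protein Cdh5 (VE-cadherin) was at 19.6 and 52.0 FPKM in HF week 3 libraries 1 and 2 and 49.4, 43.8, 47.8, 47.8 and 39.8 FPKM in control libraries 1 to 5, overlapping with the controls. Of 14 Wnt modulators 5 were higher and 0 lower, with a median of 0.10 and none called under weighting, and 7 had a difference above 0 and 7 below. The higher ones were the secreted antagonists Sfrp1, Sfrp2 and Frzb, the receptor Fzd1 and Dkk3, which is also among the atrial genes above.

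Endothelial genes were partly higher. Of 18 judged genes 8 were called higher and 1 lower (median 0.53), 2 and 0 under weighting, and the list summed to 4440 and 4785 FPKM against 2386 to 4700 FPKM. Vwf, von Willebrand factor, was at 59.2 and 102 FPKM in HF week 3 libraries 1 and 2 and 17.5, 18.1, 16.2, 18 and 18 FPKM in control libraries 1 to 5, a rise of 2.12 (SE 0.36, adjusted p 1.11e-04, weighted adjusted p 0.0666). Emcn, endomucin of veins and capillaries, was at 93.7 and 108 FPKM against 25.1 to 53.4 FPKM in the controls (difference 1.66, SE 0.23, adjusted p 1.75e-05) and Esam, a junction adhesion molecule, at 204 and 113 FPKM against 50.1 to 65.5 FPKM in the controls (difference 1.46, SE 0.16, adjusted p 1.50e-06). Kdr, the main VEGF receptor, was the lower one, a call lost with library 2 alone, without control library 4, with no filter and when rescaled without the 20 highest genes. Among 17 angiogenic genes 4 were higher and 3 lower, 0 and 1 under weighting, with Vegfb, a growth factor that cardiomyocytes express, at 65.3 and 223 FPKM in HF week 3 libraries 1 and 2 and 400.0, 396, 391, 388 and 380.2 FPKM in control libraries 1 to 5, a fall of 1.69 (SE 0.30, adjusted p 1.49e-04), and the VEGF co-receptor Nrp1 at 28.8 and 34.5 FPKM against 12.7 to 22.1 FPKM in the controls (weighted adjusted p 0.198). Vegfa was not called.

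Of 12 genes of smooth muscle and pericytes 4 were higher and 1 lower (median 0.24), against 4 and 4 with library 1 alone and 0 and 0 under weighting. Cnn1, calponin, was at 24.9 and 7.84 FPKM in HF week 3 libraries 1 and 2 and 1.79, 1.76, 1.74, 0.515 and 1.69 FPKM in control libraries 1 to 5 (weighted adjusted p 0.178) and Tagln, an actin-binding protein of contractile smooth muscle, at 78.9 and 74.7 FPKM against 22.3 to 36.3 FPKM in the controls (difference 1.25, SE 0.27, adjusted p 9.22e-04, weighted adjusted p 0.436). Pdgfrb and Cspg4, on pericytes, were higher, Smtn was lower, and Acta2 and Myh11 were not called. Of 24 genes of the actin cytoskeleton outside the sarcomere 11 were higher and 0 lower (median 0.55), 4 of them also under weighting, and with library 1 alone 9 and 3. Capg, which caps actin filaments, was at 108 and 75.1 FPKM in HF week 3 libraries 1 and 2 and 19.2, 17.1, 14.8, 18.3 and 27.5 FPKM in control libraries 1 to 5, Anxa1, a calcium-dependent membrane protein, at 75 and 57.2 FPKM against 11.5 to 20.6 FPKM in the controls, and S100a6 at 393 and 421 FPKM against 80.5 to 150.4 FPKM in the controls. Myl9, a light chain of smooth and non-muscle myosin, was at 139 and 202 FPKM against 27.3 to 47.2 FPKM in the controls (difference 2.06, SE 0.39, adjusted p 3.06e-04, weighted adjusted p 0.164).

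Type I interferon, released on viral or nucleic acid signals, switches on antiviral genes through the complex ISGF3, which binds an element of 2 GAAA runs with 2 bases between them. Of 20 interferon-stimulated genes 15 were called higher and 0 lower, with a median of 1.09, and 1 held under weighting, Oasl2, at 7.41 and 13 FPKM against 1.94 to 2.62 FPKM in the controls. The promoters of 4 of the higher genes are shown because the element lies in each of them, read from RefSeq on GRCm38.p6 from 170 bases before the start, with the element in capitals on either strand (2 TTTC runs with 2 bases between where it lies on the other strand), overlapping copies run together:
Isg15, chr4:156200819-156200988, minus strand: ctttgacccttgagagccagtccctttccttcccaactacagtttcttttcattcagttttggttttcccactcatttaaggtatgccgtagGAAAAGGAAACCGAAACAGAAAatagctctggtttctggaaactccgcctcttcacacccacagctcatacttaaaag
Ifit3, chr19:34583359-34583528, plus strand: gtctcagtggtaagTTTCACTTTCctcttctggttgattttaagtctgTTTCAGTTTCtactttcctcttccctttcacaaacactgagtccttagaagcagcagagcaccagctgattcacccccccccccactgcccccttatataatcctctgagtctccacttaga
Ifit1, chr19:34640719-34640888, plus strand: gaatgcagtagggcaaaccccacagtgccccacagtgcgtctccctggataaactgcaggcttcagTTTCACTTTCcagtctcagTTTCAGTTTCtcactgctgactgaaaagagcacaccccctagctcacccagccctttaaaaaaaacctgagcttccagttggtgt
Rsad2, chr12:26456453-26456622, minus strand: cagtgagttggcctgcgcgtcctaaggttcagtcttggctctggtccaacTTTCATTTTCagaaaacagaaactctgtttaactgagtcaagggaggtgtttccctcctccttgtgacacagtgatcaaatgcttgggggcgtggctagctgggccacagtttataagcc
In Isg15 3 overlapping copies were found, in Ifit3 and Ifit1 2 each and in Rsad2 1. Within 250 bases before the start the element occurred in 10 of the 17 genes of the list that have a promoter in the RefSeq table, 8 of which were called higher, and 6 of the 7 without it were called higher too. It was found in 936 of 27025 promoters of all genes (3.46%).

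The first of these genes, Isg15, encodes a ubiquitin-like protein that is attached to other proteins, and it was at 46.4 and 28.1 FPKM in HF week 3 libraries 1 and 2 and 8.46, 9.20, 7.60, 7.30 and 14.5 FPKM in control libraries 1 to 5. Its HF week 3 values were above all controls and the rise was 1.93 (SE 0.30, adjusted p 4.44e-05, weighted adjusted p 0.113). Ifit3, which binds viral RNA together with Ifit1, was at 23.0 and 21.6 FPKM in HF week 3 libraries 1 and 2 and 4.02, 4.11, 4.07, 3.53 and 8.45 FPKM in control libraries 1 to 5 and rose by 2.16 (SE 0.29, adjusted p 9.04e-06, weighted adjusted p 0.0850). Ifit1 was at 9.42 and 6.70 FPKM against 1.39 to 3.97 FPKM in the controls (difference 1.81, SE 0.30, adjusted p 9.78e-05, weighted adjusted p 0.119). Irf7, Irf9 and Stat2, which carry the signal, were called higher.

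Genes of macrophages were higher in part. Of 23 judged genes 9 were called higher and 1 lower, with a median of 0.68, sums of 1129 and 936 FPKM against 422 to 749 FPKM, and 0 calls under weighting, and with library 1 alone 7 were higher and 3 lower. Lgals3, galectin-3, a lectin of activated macrophages, was at 54.9 and 106 FPKM in HF week 3 libraries 1 and 2 and 7.79, 7.30, 5.58, 5.46 and 14 FPKM in control libraries 1 to 5, a rise of 3.26 (SE 0.60, adjusted p 2.14e-04, weighted adjusted p 0.0576). Trem2, a lipid receptor, was at 16.1 and 15.1 FPKM against 2.24 to 4.59 FPKM in the controls (difference 2.16, SE 0.37, adjusted p 1.29e-04, weighted adjusted p 0.165). The monocyte receptors Ccr2 and Cx3cr1 were also higher, whereas Cd68, Csf1r and Itgam were not called and Laptm5, listed at 0 in library 1, was lower. Of 14 lymphocyte, 11 granulocyte and mast cell and 8 MHC class II genes 5, 5 and 6 passed the filter, and by limma 0, 0 and 0 were called in either direction, and 1, 4 and 0 of them had an unadjusted p under 0.05.

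Of 26 chemokines and receptors 20 passed the filter, and 7 were called higher and 2 lower, against 8 and 5 with library 1 alone and 0 and 0 under weighting, with Ccl9, which attracts myeloid cells, at 70.1 and 26.4 FPKM in HF week 3 libraries 1 and 2 and 3.85, 4.34, 4.08, 5.49 and 8.74 FPKM in control libraries 1 to 5 (weighted adjusted p 0.0821) and Ccl11, eotaxin, lower at 2.16 and 0.741 FPKM against 3.87 to 6.85 FPKM in the controls (weighted adjusted p 0.312). Of 15 complement genes 8 were higher and 0 lower (median 1.00), 1 of them under weighting. C2, a part of the classical convertase, was at 2.03 and 9.79 FPKM in HF week 3 libraries 1 and 2 and 0.336, 0.163, 0.262, 0.295 and 0.269 FPKM in control libraries 1 to 5 (difference 2.74, SE 0.39, adjusted p 2.14e-05). Of 22 cytokine and acute phase genes 16 passed the filter, and 10 were higher and 0 lower (median 1.15), 1 of them under weighting. Mt2, a metallothionein that binds zinc, was at 1244 and 2392 FPKM in HF week 3 libraries 1 and 2 and 134, 155, 125, 117 and 103 FPKM in control libraries 1 to 5, a rise of 3.77 (SE 0.51, adjusted p 1.24e-05). Hp, haptoglobin, which binds free haemoglobin, was at 130.3 and 18.4 FPKM against 1.09 to 2.40 FPKM in the controls (difference 4.59, SE 0.88, adjusted p 3.39e-04, weighted adjusted p 0.241), and Il33, an alarmin, at 13.2 and 7.62 FPKM against 0.988 to 1.42 FPKM in the controls (difference 2.67, SE 0.45, adjusted p 9.45e-05, weighted adjusted p 0.0691). Il6st and Osmr, receptor chains of the interleukin-6 family, were higher, and Stat3 and Socs3 were not called.

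Genes of calcium cycling in cardiomyocytes were lower nearly throughout. Of 14 genes 12 were called lower and 0 higher, against 21.4% lower over all genes, with a median of -0.96, and 4 held under weighting. Atp2a2, the calcium pump SERCA2a that refills the sarcoplasmic reticulum, was at 344 and 646 FPKM in HF week 3 libraries 1 and 2 and 1946, 1912, 2083, 2098 and 1555 FPKM in control libraries 1 to 5. Both HF week 3 values were far below the lowest control, and the fall was 2.02 (SE 0.18, adjusted p 1.66e-07). Pln, phospholamban, the inhibitor of that pump, was at 308 and 510.1 FPKM in HF week 3 libraries 1 and 2 and 1496, 1418, 1424, 1566 and 1510 FPKM in control libraries 1 to 5 and fell by 1.90 (SE 0.28, adjusted p 3.26e-05). Jph2, junctophilin, which holds the reticulum to the T-tubule, was at 15.7 and 4.47 FPKM in HF week 3 libraries 1 and 2 and 96.3, 106, 123, 124 and 47.6 FPKM in control libraries 1 to 5, a fall of 3.40 (SE 0.44, adjusted p 7.09e-06). Ryr2, the calcium release channel, was at 10.4 and 17.1 FPKM against 25.9 to 39.7 FPKM in the controls (difference -1.27, SE 0.22, adjusted p 1.08e-04, weighted adjusted p 0.112), and Cacnb2, a subunit of the L-type channel, at 0.633 and 1.03 FPKM against 4.04 to 10.4 FPKM in the controls. Fkbp1b and Sri were not called.

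Of 20 ion channel genes 11 were called lower and 1 higher (median -0.89), and under weighting 4 and 0. Scn4b, a sodium channel subunit, was at 0.555 and 0.60 FPKM in HF week 3 libraries 1 and 2 and 12.7, 12.5, 14.9, 12.1 and 5.17 FPKM in control libraries 1 to 5, a fall of 3.40 (SE 0.36, adjusted p 7.40e-07). Kcnip2, which is needed for the transient outward current, was at 3.70 and 3.81 FPKM in HF week 3 libraries 1 and 2 and 36.5, 33.8, 36.4, 31.6 and 16.4 FPKM in control libraries 1 to 5 and fell by 2.83 (SE 0.39, adjusted p 1.56e-05). The inward rectifiers Kcnj2, Kcnj3, Kcnj11 and Kcnj12 were lower. Of 12 genes of the intercalated disc, which joins cardiomyocytes end to end, 8 were lower and 0 higher (median -0.72), with 5 lower with library 2 alone and 2 under weighting. Dsp, desmoplakin, was at 22.4 and 21.5 FPKM in HF week 3 libraries 1 and 2 and 65.6, 65.2, 65.4, 71.9 and 54.8 FPKM in control libraries 1 to 5 (difference -1.53, SE 0.19, adjusted p 4.62e-06) and Cdh2, N-cadherin, at 18.4 and 14.5 FPKM against 27.2 to 41.6 FPKM in the controls (difference -1.15, SE 0.19, adjusted p 9.10e-05, weighted adjusted p 0.0837).

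Of 13 judged genes of the sarcomere 3 were called lower, Ldb3, Tnnt2 and Tpm1, and 0 higher, with a median of -0.34, and 5 were lower with library 1 alone and 1 under weighting. Ldb3, a protein of the Z-disc, was at 97.0 and 226 FPKM in HF week 3 libraries 1 and 2 and 556, 566, 599.8, 628 and 476 FPKM in control libraries 1 to 5 and fell by 1.92 (SE 0.24, adjusted p 4.98e-06). Mypn, myopalladin, another Z-disc protein and among the 12 largest falls, was at 0.327 and 0.529 FPKM in HF week 3 libraries 1 and 2 and 9.71, 9.59, 12.6, 14.4 and 5.37 FPKM in control libraries 1 to 5. Of 14 cardiac transcription factors 9 were lower and 0 higher (median -1.14, 4 under weighting, 6 of 11 without genes listed at 0), Gata4, Nkx2-5 and Tbx20 among them. Hopx, a homeodomain protein that does not bind DNA, was at 58.1 and 60.6 FPKM in HF week 3 libraries 1 and 2 and 306, 278, 340.1, 319 and 254 FPKM in control libraries 1 to 5, a fall of 2.32 (SE 0.16, adjusted p 3.47e-09). Of 12 ubiquitin ligase genes of striated muscle 9 were lower and 0 higher (median -1.0, 3 under weighting), with Fbxo40 at 1.81 and 0.552 FPKM against 6.21 to 15.3 FPKM in the controls (weighted adjusted p 0.0873) and Asb15 at 1.39 and 0.894 FPKM against 3.99 to 6.84 FPKM in the controls, and the atrophy gene Fbxo32 was not called.

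Genes that burn fatty acids were lower nearly throughout. Of 27 judged genes 23 were called lower and 0 higher, with a median of -1.40, and 13 held under weighting. Hadh, which oxidises hydroxyacyl-CoA in beta-oxidation, was at 39.4 and 83.2 FPKM in HF week 3 libraries 1 and 2 and 422, 392, 391, 409 and 300.5 FPKM in control libraries 1 to 5, a fall of 2.72 (SE 0.25, adjusted p 2.06e-07). Acadm, the medium-chain acyl-CoA dehydrogenase, was at 110.5 and 112 FPKM in HF week 3 libraries 1 and 2 and 609, 539.6, 571, 618 and 517 FPKM in control libraries 1 to 5. Both HF week 3 libraries were close to each other and far below the controls, a fall of 2.35 (SE 0.24, adjusted p 5.79e-07). Etfdh, which passes the electrons on to ubiquinone, was at 17.1 and 39.7 FPKM in HF week 3 libraries 1 and 2 and 199, 186, 196, 203 and 162 FPKM in control libraries 1 to 5 (difference -2.83, SE 0.27, adjusted p 2.32e-07). Cpt1b, the muscle gate for fatty acids into mitochondria, was lower by a smaller margin, at 181 and 122 FPKM in HF week 3 libraries 1 and 2 and 220.5, 229, 231, 233 and 188 FPKM in control libraries 1 to 5 (-0.56, adjusted p 0.0189, weighted adjusted p 0.326), and its call was lost with library 1 alone. Pdk4, Cpt1a and Lpl were not called.

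Of 22 genes of pyruvate oxidation and the tricarboxylic acid (TCA) cycle 20 were lower and 0 higher (median -1.40), 12 of them under weighting. Sdha, a subunit of succinate dehydrogenase, was at 111 and 109 FPKM in HF week 3 libraries 1 and 2 and 441, 429, 418, 462 and 368 FPKM in control libraries 1 to 5, and fell by 1.93 (SE 0.14, adjusted p 1.23e-08). Suclg2, of succinyl-CoA ligase, was at 6.47 and 16.8 FPKM against 54.9 to 72.6 FPKM in the controls. Of 18 genes that break down branched-chain amino acids 15 were lower and 0 higher (median -1.26), 10 of them under weighting. Ivd, which oxidises isovaleryl-CoA from leucine, was at 27.1 and 34.1 FPKM in HF week 3 libraries 1 and 2 and 144, 129, 155, 163 and 85.7 FPKM in control libraries 1 to 5 (difference -2.10, SE 0.23, adjusted p 8.88e-07), and Mut, methylmalonyl-CoA mutase, at 0.943 and 5.59 FPKM against 13 to 16.8 FPKM in the controls.

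The respiratory chain was lower in part, with fewer calls in library 2 alone. Of 36 nuclear genes of complex I 16 were called lower and 0 higher (median -0.57), and 5 were lower with library 2 alone, 2 under weighting, 27 under quantile normalization and 25 when rescaled without the 20 highest genes. Ndufs1, the largest subunit of complex I, was at 40.2 and 41.3 FPKM in HF week 3 libraries 1 and 2 and 159.5, 144, 161, 172 and 129.6 FPKM in control libraries 1 to 5, alike in both HF week 3 libraries, a fall of 1.89 (SE 0.13, adjusted p 6.82e-09). Of 32 genes of complexes III to V and cytochrome c 20 were lower and 0 higher (median -0.97), with 8 lower with library 2 alone and 4 under weighting, and Atp5c1, a subunit of the ATP synthase, was at 159.7 and 320.0 FPKM in HF week 3 libraries 1 and 2 and 927, 975, 893, 919 and 917 FPKM in control libraries 1 to 5 (difference -2.03, SE 0.23, adjusted p 1.44e-06). The mitochondrial genes Cytb and mt-Nd4 were listed at 0 in every control and at 2192 and 9961 FPKM and 1293 and 10081 FPKM in the HF week 3 libraries.

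Of 16 regulators of mitochondrial and fatty acid genes 11 were lower and 1 higher, Nr2f2, an orphan nuclear receptor (median -1.03), and under weighting 2 and 0. Ppara, the receptor that switches on fatty acid oxidation, was at 1.89 and 1.56 FPKM in HF week 3 libraries 1 and 2 and 6.66, 7.30, 8.21, 7.97 and 4.56 FPKM in control libraries 1 to 5, a fall of 1.72 (SE 0.22, adjusted p 7.17e-06, weighted adjusted p 0.0598). Rxrg, a partner of such receptors, was at 13.5 and 14.1 FPKM against 37.2 to 47.9 FPKM in the controls (difference -1.62, SE 0.21, adjusted p 6.65e-06) and Klf15, a factor of cardiac lipid use, at 9.52 and 10.2 FPKM against 20.9 to 31.8 FPKM in the controls (difference -1.45, SE 0.19, adjusted p 1.05e-05, weighted adjusted p 0.0555). Ppargc1a, the coactivator of mitochondrial biogenesis, was at 3.83 and 2.92 FPKM in HF week 3 libraries 1 and 2 and 6.30, 6.67, 5.78, 8.55 and 12.9 FPKM in control libraries 1 to 5 (-1.09, adjusted p 0.0177, weighted adjusted p 0.642), and its call needed both libraries together. Of 20 glycolysis genes 9 were lower and 0 higher (median -0.53, 3 under weighting), with hexokinase Hk2 at 7.2 and 8.76 FPKM in HF week 3 libraries 1 and 2 and 38.8, 38.2, 49.1, 43.4 and 28.6 FPKM in control libraries 1 to 5 (difference -2.23, SE 0.26, adjusted p 2.66e-06) and the muscle phosphofructokinase Pfkm at 115 and 102 FPKM against 267 to 376 FPKM in the controls (difference -1.68, SE 0.15, adjusted p 1.69e-07), and Gapdh and Slc2a1 were not called.

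**Figure D4:**
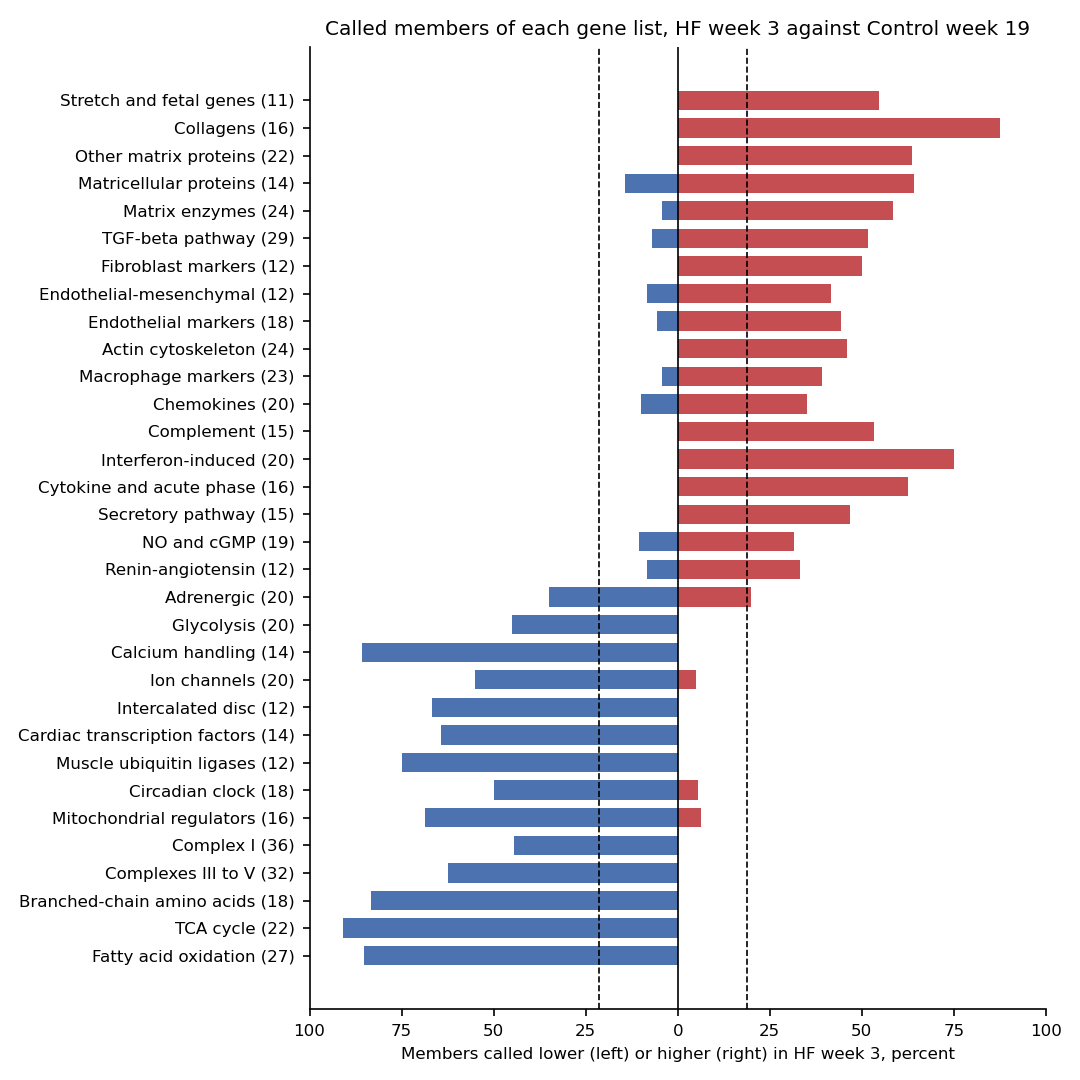
Percent of the judged members of each gene list called higher (bars to the right) and lower (bars to the left), with the number judged in brackets and dashed lines at the 18.8% and 21.4% of all 12759 genes tested. Collagens, with 14 of 16 higher, and fatty acid genes, with 23 of 27 lower, reach far past the dashed lines.

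Of 15 genes of the secretory pathway, which folds matrix proteins, 7 were higher and 0 lower (median 0.65, 1 under weighting), Creld2, a chaperone of the endoplasmic reticulum, at 51.8 and 27.8 FPKM against 13.3 to 21.2 FPKM in the controls (difference 1.28, SE 0.21, adjusted p 7.10e-05) and the disulfide isomerase Pdia6 at 123 and 70.9 FPKM against 41.3 to 55.5 FPKM in the controls (difference 1.01, SE 0.16, adjusted p 5.71e-05, weighted adjusted p 0.0530). Of 16 genes of the integrated stress response 5 were higher and 1 lower, against 6 and 4 with library 1 alone and 0 and 0 under weighting, with Phgdh, the first enzyme of serine synthesis, at 3.82 and 5.55 FPKM in HF week 3 libraries 1 and 2 and 0.927, 1.31, 1.19, 1.45 and 1.65 FPKM in control libraries 1 to 5 (difference 1.51, SE 0.25, adjusted p 8.84e-05, weighted adjusted p 0.187), and Atf4 and Ddit3 not called. Of 22 redox genes 6 were higher and 6 lower, against 3 and 6 with library 2 alone and 1 and 4 under weighting. Gpx3, a secreted glutathione peroxidase, was at 7430 and 1887 FPKM in HF week 3 libraries 1 and 2 and 200.2, 255, 189, 203 and 312 FPKM in control libraries 1 to 5, a rise of 4.04 (SE 0.57, adjusted p 1.73e-05), and catalase Cat was at 8.62 and 23.8 FPKM in HF week 3 libraries 1 and 2 and 64.5, 67.7, 67.5, 70.2 and 54.1 FPKM in control libraries 1 to 5, a fall of 2.13 (SE 0.27, adjusted p 4.69e-06). The lower redox genes included the mitochondrial Sod2, Prdx3 and Txnrd2, and the higher ones the NADPH oxidase subunits Cyba and Ncf1.

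Of 21 cell cycle genes 3 were higher and 2 lower, against 8 and 5 with library 1 alone, 1 and 1 with library 2 alone and 0 and 0 under weighting. Mcm6, a subunit of the replication helicase, was at 9.33 and 5.54 FPKM against 2.22 to 4.42 FPKM in the controls (difference 1.22, SE 0.21, adjusted p 1.11e-04, weighted adjusted p 0.0738) and Pcna, the sliding clamp of DNA polymerase, lower at 13.5 and 19.4 FPKM against 29.1 to 31.1 FPKM in the controls (difference -0.88, SE 0.15, adjusted p 1.17e-04, weighted adjusted p 0.162), while Top2a, Cdk1 and Ccnb2 were not called. Of 18 clock genes 9 were lower and 1, Arntl, higher, with 5 lower with library 2 alone, 0 higher with library 1 alone and 0 called under weighting. Dbp, an output factor of the clock, was at 15.9 and 21.6 FPKM in HF week 3 libraries 1 and 2 and 77.1, 82.2, 78.9, 39.5 and 34.3 FPKM in control libraries 1 to 5 (weighted adjusted p 0.395), and its call was lost with library 2 alone, and Bhlhe40 was at 3.68 and 6.54 FPKM against 9.66 to 26.9 FPKM in the controls (weighted adjusted p 0.135). The hour at which the hearts were taken is not given in the sources used here. Of 17 immediate early genes 5 were lower and 0 higher (median -1.09, or -1.31 with library 2 alone and -0.58 with library 1 alone), and 4 had a difference above 0. Under weighting 0 were called. The phosphatase Dusp1 was at 31.1 and 25.4 FPKM in HF week 3 libraries 1 and 2 and 75.1, 159, 99.1, 65.5 and 52.4 FPKM in control libraries 1 to 5 (weighted adjusted p 0.508), below controls that were themselves far apart. Fos, Egr1 and Myc were not called.

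Among genes above 0 in all 7 libraries, the 12 largest rises included those of Myl7, Myl4, Cfd, Msln, AK148054, Dkk3, Fmod, Timp1, Hp, Nkain4 and Krt18, of which Myl7, Myl4, Dkk3, Cfd and Msln are markers of atrium, fat or mesothelium. The transcript AK148054 was at 480.2 and 28.2 FPKM against 1.09 to 2.77 FPKM in the controls (weighted adjusted p 0.0843). Nkain4, a protein that interacts with the sodium pump, was at 6.16 and 58.5 FPKM against 0.0769 to 0.834 FPKM in the controls, and keratin Krt18 of epithelia at 11.5 and 17.1 FPKM against 0.194 to 0.371 FPKM in the controls. The 12 largest falls were those of Stradb, Akr1b10, Rab22a, Mypn, Jph2, Scn4b, Efnb3, As3mt, Magix, Nkiras2, Pla2g5 and Atg9a. In 5 of them library 1 was close to 0, as in Stradb, an activator of the kinase Lkb1, at 3.30e-05 and 4.71 FPKM in HF week 3 libraries 1 and 2 and 21.2, 22.6, 24.7, 22.8 and 16.4 FPKM in control libraries 1 to 5. Rab22a, of endosomes, was at 1.29e-04 and 8.16 FPKM against 18.9 to 25.6 FPKM in the controls, Akr1b10, an aldo-keto reductase, at 9.44e-04 and 12.8 FPKM against 27.6 to 36.2 FPKM in the controls, As3mt, an arsenic methyltransferase, at 6.58e-04 and 11.9 FPKM against 23.2 to 28.2 FPKM in the controls and Magix at 0.00118 and 1.75 FPKM against 8.75 to 11 FPKM in the controls. Of the genes tested 47 were above 0 and below 0.01 FPKM in library 1. Efnb3, an ephrin ligand, was low in both libraries without such a value, at 2.17 and 5.34 FPKM in HF week 3 libraries 1 and 2 and 43.4, 39.7, 45.7, 44.6 and 29.9 FPKM in control libraries 1 to 5, a fall of 3.37 (SE 0.24, adjusted p 7.47e-09). Pla2g5, a secreted phospholipase, was at 2.61 and 1.36 FPKM in HF week 3 libraries 1 and 2 and 21.2, 18.7, 25.4, 24.8 and 11.2 FPKM in control libraries 1 to 5, the autophagy protein Atg9a at 0.884 and 1.75 FPKM against 5.06 to 20.3 FPKM in the controls (weighted adjusted p 0.0579) and Nkiras2, an inhibitor of NF-kappaB signalling, at 0.0355 and 1.13 FPKM against 4.13 to 9.83 FPKM in the controls.

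The controls are older than the HF week 3 mice, and Recovery weeks 7 to 13, after the agents were stopped, lie between them in time. The mice of those weeks had been treated and were also older than the HF week 3 mice. In their libraries the 10 highest genes made up 27.9% to 37.4% of all FPKM, against 14.6% to 15.6% in the controls. Of the 2393 genes called higher, 1843 lay also above all 9 libraries of those weeks, and of the 2727 called lower 2140 lay below all 9. Nppb, Acta1, Ctgf, Col1a1, Col3a1, Postn and Ace were above and Agtr1a, Atp2a2, Hadh and Ndufs1 below all of them, while Ankrd1, Twist2 and Cpt1b overlapped with them. With those weeks included in the condition, the higher calls went from 15 to 6 for TGF-beta signalling, from 14 to 9 for structural matrix proteins, from 9 to 5 for macrophages, from 8 to 5 for complement, from 5 to 3 for Wnt modulators, from 4 to 2 for the renin-angiotensin system, from 3 to 1 for the cell cycle and from 2 to 0 for endothelin. The lower calls went from 16 to 8 for complex I, from 20 to 10 for complexes III to V, from 9 to 5 for clock genes, from 8 to 5 for the intercalated disc, from 2 to 1 for TGF-beta and for nitric oxide signalling, and from 1 to 0 for endothelin, matrix enzymes and neural genes.

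HF week 3 was last compared with HF week 5, 2 weeks further into the induction. In the same fit 799 genes (6.26%) were higher at week 3 and 1148 (9%) lower. These counts rested largely on library 1, since library 2 alone gave 110 and 56 and library 1 alone 2706 and 4030. Called with both libraries and with each alone, and above 0 in some library of both groups, were 53 genes (0.415%) higher and 48 (0.376%) lower. Under library weights 9 were higher and 1 lower, and of the 16 genes described that were called with both and with each alone, Eln was called (weighted adjusted p 0.0257) while the other 15 were not, at weighted adjusted p from 0.208 to 0.585.

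Among these 53 were 10 of 16 collagens, 0 of them called under weights, and 4 of 22 other matrix proteins, Eln, Vcan, Fbln2 and Emilin1, 1 of them under weights, and the collagen-binding protein Sparc. Col3a1, whose week 3 values are given above, was at 53.0, 31.0 and 47.5 FPKM in HF week 5 libraries 1 to 3, a difference between the weeks of 1.84 (SE 0.23, adjusted p 1.09e-04). Col1a1 was at 30.1, 21.2 and 23.8 FPKM at week 5 (1.58, SE 0.24, adjusted p 6.40e-04). Eln was at 27.3, 18.6 and 23.3 FPKM at week 5 (3.27, SE 0.41, adjusted p 1.29e-04). For these 3 genes neither HF week 3 library overlapped with week 5. Col5a2 (1.83) and Col16a1 (1.55), the metallothionein Mt2 (2.97), Esam (1.08), Phgdh (1.23) and the mesothelial keratin Krt19 (2.80) were higher at week 3 by the same rule, and so was Ace, at 25.3, 18.7 and 28.6 FPKM at week 5 (1.09, SE 0.18, adjusted p 0.00103).

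**Figure D5:**
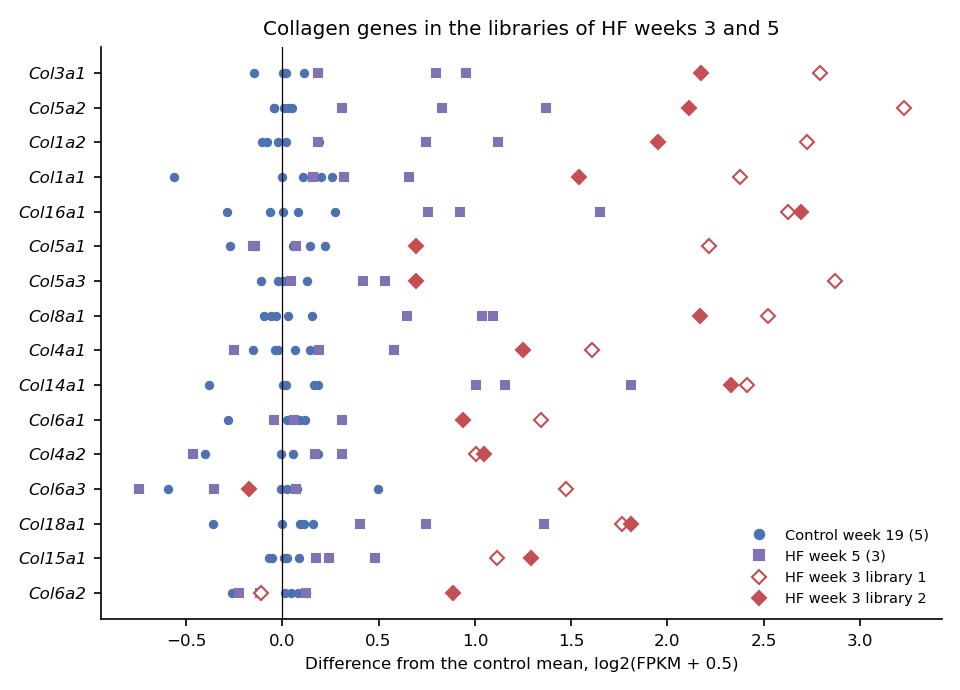
Difference of each library from the control mean, on the log2(FPKM + 0.5) scale, for 16 collagen genes, with circles for controls, squares for HF week 5 and diamonds for HF week 3 (library 1 open). Both diamonds lie to the right of all circles and squares for 14 of the genes, the exceptions being Col6a2 and Col6a3.

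Lower at week 3 than at week 5 by the same rule were Atp2a2, at 1097, 1274 and 1153 FPKM at week 5 (a difference of -1.31, SE 0.20, adjusted p 5.31e-04), and Hopx, at 113, 174 and 155 FPKM (-1.28, adjusted p 2.28e-04). The metabolic genes Sdha (-0.79) and Ndufs1 (-0.98) and the branched-chain genes Bckdhb, Aldh6a1 and Pcca were lower as well, as were Efnb3 (-1.86) and Pla2g5 (-2.06), and none of the genes named here as lower was called under weights. Nppb, at 1155, 1664 and 1610 FPKM at week 5, differed by -0.05 (SE 0.52) and was not called. The atrial light chain Myl7 was at 18388, 152 and 6.16 FPKM in the 3 libraries of week 5, above every control in each and highest in library 1, and Myl4 was at 11435, 116 and 8.05 FPKM, likewise above every control.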

How the data were processed

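RNA of frozen mouse heart tissue was enriched for poly(A), sequenced in read pairs, and per the labels and methods aligned by the authors with TopHat 2.0.12 to mouse MGSCv37 (mm9). The deposited FPKM were computed by the authors with Cuffdiff, 1 column per library, for 29955 genes by symbol. The annotation and the scaling between libraries are not given in the sources used here. FPKM keep no read counts, so the depth behind a value is unknown. In low genes 1 fragment was worth 0.716 times as much FPKM in HF week 3 library 2 as in the median control (0.876 to 1.06 within the controls), and library 1, with 11 such genes, was left without an estimate.

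The week in a column's name gave its group, and library numbers carry no link to a labelled animal. The 5 columns named for Control week 5 were not used, since 4 samples carry that label. The 12759 genes whose mean over 24 libraries reached 0.5 FPKM were tested with limma (3.58.1, under R 4.3.3) on log2(FPKM + 0.5), 8 group means and 16 residual degrees of freedom, eBayes with a trend and two-sided tests, and Benjamini-Hochberg adjustment over all genes tested. A call needed an adjusted p under 0.05 and both HF week 3 libraries on one side of all 5 controls. In simulated data the procedure recovered 70% of genes given a log2 difference of 1 and 96% of those given 2, and called 0.119% of unchanged genes. Each gene had the same spread in every simulated group, and no library was given the wider spread or the zeros of HF week 3. These rates therefore do not describe the calls made here.

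The comparison, the gene lists and the markers were chosen with earlier results of these data known. The genes named with values are from the 12 largest rises and 12 largest falls among called genes above 0 in all 7 libraries, up to 4 called members of each list with the largest difference, and a set of heart, matrix and vessel genes named whatever their values. Some genes that this rule or these lists name are not reported here. Counts over a list leave out genes at 0 in a whole group ("judged"). Alternatives varied the pseudocount (0.1 and 1), the filter (none, or a mean of 1), the scaling (median centring, quantile, without the 20 highest genes, GC and length trend), library weights, robust eBayes, only both groups in the fit, genes at 0 left out, an unadjusted p, and each library left out in turn. Promoters were taken from RefSeq on GRCm38.p6, a later build than that of the alignment, by symbol. Scripts ran under Python 3.11.15 (matplotlib 3.10.9, numpy 2.4.6, pandas 2.3.3).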

Additional observations from a re-analysis of the deposited data

Results flagged for a closer look

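In 27 of the 129 genes described, 1 control library lay apart from the other 4 by Dixon's ratio of gap to range, above the critical value of 0.71 for 5 samples. Chance gives about 1 in 20 groups. In 20 of the 27 it was control library 5, which also had the lowest weight of the controls (0.353 against 1.74 to 3.09). It was the lowest of the controls, and so the closest to HF week 3, with ratios of 0.825 for Prkaca, 0.737 for Jph2, 0.80 for Scn4b, 0.82 for Kcnip2, 0.732 for Cdh2, 0.849 for Asb15, 0.779 for Hadh, 0.744 for Cpt1b, 0.771 for Klf15, 0.887 for Pfkm, 0.797 for Nkiras2 and 0.785 for Atg9a. This did not hold for metabolic genes at large. Control library 5 had the highest sum of the controls for complex I (64119 against 47434 to 54180 FPKM) and for fatty acid genes (21604 against 20342 to 21477 FPKM). In the same library Msln (0.73), Mmp3 (0.767), Meox1 (0.758), Snai2 (0.763), Emcn (0.787), Ifit3 (0.83), Creld2 (0.719) and Krt18 (0.759) stood apart. In control library 4 it was Adipoq (1), Eln (0.785), Tagln (0.851), Cnn1 (0.946), Myl9 (0.748) and Oasl2 (0.807), and in control library 2 Dkk3 (0.793). Without control library 5 the calls were 2777 higher and 3107 lower.

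The difference between HF week 3 and HF week 5, tested in the same limma fit, called 799 genes higher and 1148 lower. Of the genes described, 16 were called with both HF week 3 libraries and with each alone. Higher at week 3 were Krt19 (2.80 on the log2 scale), Eln (3.27), Mt2 (2.97), Col3a1 (1.84), Col5a2 (1.83), Col1a1 (1.58), Col16a1 (1.55), Phgdh (1.23), Ace (1.09) and Esam (1.08). Lower at week 3 were Pla2g5 (-2.06), Efnb3 (-1.86), Atp2a2 (-1.31), Hopx (-1.28), Ndufs1 (-0.98) and Sdha (-0.79).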

How the results depend on the processing

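Of the 121 called genes among the 129 described, 114 remained called under every alternative planned other than library weights, 63 remained called also under weights, and 0 changed sign. Weights gave 218 genes higher and 489 lower, and 114 called members of the gene lists against 428. With 1 HF week 3 or control library left out the calls ran from 1845 to 3465 higher and from 1985 to 4526 lower, and those between HF week 3 and HF week 5 from 110 to 2706 higher and from 56 to 4030 lower, the extremes coming from library 2 alone and library 1 alone. Between HF weeks 3 and 5, weights, added after seeing the data, gave 9 higher and 1 lower. With the adjusted p alone, an alternative also added after seeing the data, 2949 were higher and 3522 lower, and requiring no overlap with Recovery weeks 7 to 13, likewise added, left 1843 and 2140, and 116 of the 121. With 1 library left out the difference of Snai1 ran from -2.96 to 0.17, that of Cdh5 from -1.20 to 0.19 and that of Snai2 from -0.0248 to 0.26, and Snai2 was at -0.0057 under median centring. The causes were not tested. The median difference of all genes moved from -0.05 to -0.11 under median centring, without the 20 highest genes and with library 1 alone. No paired analysis was possible because the columns carry no link to the replicate letters of the labels. Read depth is unknown, and values near 0 in HF week 3 library 1 limit what its low genes can show.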
